A study of Mus musculus with 6 samples.

Results

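The genes described here are the 5 NF-kB subunit genes (Nfkb1, Nfkb2, Rela, Relb and Rel) and 5 genes whose products regulate NF-kB (Nfkbia, Nfkbie, Nfkbiz, Bcl3 and Tnfaip3). They form a list set by name and not by a threshold on measured values, drawn up with earlier results of these data known, and were found by Entrez gene ID. All 10 were among the 36528 gene IDs listed, and all 10 passed the filter on low counts, with 13353 genes, so that each could be tested.

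NF-kB is a family of transcription factors that bind DNA as pairs of subunits. In resting cells, inhibitor proteins of the IkB class hold the pairs in the cytoplasm. Signals from cytokine and pathogen receptors activate the IkB kinase, the inhibitors are degraded, and the pairs enter the nucleus. Several of the genes they switch on encode inhibitors, among them Nfkbia and Tnfaip3, and so form a negative feedback loop. In myeloid cells the pathway is known for the control of inflammatory genes and of survival.

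RNA was sequenced from HOXB-8 cells of mouse bone marrow, a myeloid progenitor line kept dividing by a homeobox factor; the extraction notes also use the name iMACs. The IRF2_KO group is a line that received the guide RNA gRNA2 against Irf2, the gene of the transcription factor interferon regulatory factor 2, and the Parental group is Irf2 wild type, with a control guide RNA named Luc in the same notes. No stimulus is stated. Each group had 3 libraries, and the sources do not say whether these stand for separate cultures or clones, so the spread behind each p-value may be technical. The total count was 29070160 to 34051219 in IRF2_KO libraries and 33422590 to 39925038 in Parental libraries.

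Irf2 itself, on which the guide acts, stood at 40.3, 37.0 and 40.1 CPM in IRF2_KO libraries, against 41.1, 42.4 and 41.1 CPM in Parental libraries, and was not called (edgeR adjusted p = 0.209), so the level of this transcript does not check the labels. CPM is the count of a gene scaled by its library total after TMM normalization. Gsdmd, the gasdermin D gene known to depend on IRF2, had 1.95, 2.48 and 2.32 CPM in IRF2_KO libraries, against 69.3, 74.9 and 79.5 CPM in Parental libraries. Markers of promyelocytes (Elane, Mpo, Prtn3, Ctsg and Ms4a3) summed to 10382 to 11915 CPM in IRF2_KO libraries and 12439 to 13445 CPM in Parental libraries. Elane, a granule elastase, and Mpo, myeloperoxidase, fell, with means of 924 and 638 CPM in IRF2_KO and 2989 and 918 CPM in Parental libraries. Ctsg was called higher (4195 CPM in IRF2_KO, 3829 CPM in Parental), with overlapping libraries, and Prtn3 and Ms4a3 were not called. Markers of B cells and T cells summed to at most 1.04 and 0.349 CPM in IRF2_KO libraries and at most 3.83 and 1.27 CPM in Parental libraries. The only gene tested in each list fell, Ebf1 (0.352 CPM in IRF2_KO, 3.53 CPM in Parental) and Lck (0.230 CPM in IRF2_KO, 1.08 CPM in Parental). The B cell gene Cd79b, too low to test, went the other way (0.492 CPM in IRF2_KO, 0.142 CPM in Parental). Of 10 macrophage markers 6 could be tested, and 5 of these rose and 0 fell, where 23.6% of all tested genes were called higher and 23.6% lower (edgeR, adjusted p under 0.05). All 10 summed to 186 to 190 CPM in IRF2_KO libraries and 124 to 125 CPM in Parental libraries. Most of that sum is Adgre1 (106 CPM in IRF2_KO, 78.4 CPM in Parental). The complement genes C1qa, C1qb and C1qc never exceeded 1 read. Cd163, too low to test, went the other way, with 0 reads in each IRF2_KO library and 11, 2 and 10 reads in Parental libraries. Of 9 neutrophil markers 4 rose and 2, Camp and Retnlg, fell. All 9 summed to 337 to 340 CPM in IRF2_KO and 296 to 307 CPM in Parental libraries. Of 3 dendritic cell markers tested, Zbtb46 (2.80 CPM in IRF2_KO, 0.578 CPM in Parental) and Clec9a (0.657 CPM in IRF2_KO, 0.248 CPM in Parental) rose, while Flt3 (9.83 CPM in IRF2_KO, 17.7 CPM in Parental) fell and makes up most of the sum. All 6 markers of the list summed to 12.7 to 14.4 CPM in IRF2_KO and 17.8 to 19.6 CPM in Parental libraries, with Siglech and Cd209a at 0 reads. Megakaryocyte markers summed to 19.6 to 22.8 CPM in IRF2_KO and 8.76 to 9.57 CPM in Parental libraries. Most of that sum is Gp1bb, which rose (20.8 CPM in IRF2_KO, 8.20 CPM in Parental), while Gp9, the other one tested, fell (0.434 CPM in IRF2_KO, 0.911 CPM in Parental). Erythroid markers summed to at most 1.44 CPM in IRF2_KO and 1.31 CPM in Parental libraries. In bulk RNA, fewer cells of a type and less RNA per cell cannot be told apart, and the part of these markers in the results below was not tested.

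Promoter windows of RefSeq (GRCm38.p6) were at hand for 7 of the 10 genes, with 10 windows in all since Nfkb2 has several starts and Tnfaip3 a pair. The windows run from 250 bases before to 50 bases after a transcription start. They were searched on both strands, overlapping matches included, for the kappaB consensus of NF-kB binding sites (GGG, a purine, any 2 bases, 2 pyrimidines, CC). The core of the element that interferon regulatory factors bind was also searched, as GAAA, any 2 bases and GAAA again. A kappaB match was found for 6 of the 7 genes (Bcl3, Nfkb2, Nfkbia, Nfkbie, Rel and Tnfaip3) and not for Rela; over all genes with a window, 9.55% of 27025 held one. None of the windows of the 7 genes held the interferon regulatory factor core, which 3.99% of all genes did. Shown here are the 250 bases before the start of Nfkbia, Tnfaip3 and Nfkbie, which differed between the groups, and of Rel, which did not pass the test, each read 5′ to 3′ with the kappaB matches in capitals. A match is a run of letters and not a measured binding site.
Nfkbia, chr12:55492648-55492897, reverse strand: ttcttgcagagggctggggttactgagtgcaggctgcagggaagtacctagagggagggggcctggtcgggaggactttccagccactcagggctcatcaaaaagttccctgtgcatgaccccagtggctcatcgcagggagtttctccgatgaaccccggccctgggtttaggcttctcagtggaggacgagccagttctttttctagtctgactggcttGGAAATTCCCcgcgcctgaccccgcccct
Tnfaip3, chr10:19015411-19015660, reverse strand: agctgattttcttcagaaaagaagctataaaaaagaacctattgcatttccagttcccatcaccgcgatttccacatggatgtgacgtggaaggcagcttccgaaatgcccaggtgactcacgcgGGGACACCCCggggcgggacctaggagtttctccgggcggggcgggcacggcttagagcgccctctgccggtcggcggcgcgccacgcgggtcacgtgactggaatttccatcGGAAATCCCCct
Nfkbie, chr17:45555450-45555699, forward strand: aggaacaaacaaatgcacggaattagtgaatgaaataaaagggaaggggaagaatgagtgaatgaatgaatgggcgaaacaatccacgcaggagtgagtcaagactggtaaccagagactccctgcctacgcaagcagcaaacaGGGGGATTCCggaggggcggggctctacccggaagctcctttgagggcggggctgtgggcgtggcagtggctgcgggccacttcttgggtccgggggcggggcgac
Rel, chr11:23770970-23771219, reverse strand: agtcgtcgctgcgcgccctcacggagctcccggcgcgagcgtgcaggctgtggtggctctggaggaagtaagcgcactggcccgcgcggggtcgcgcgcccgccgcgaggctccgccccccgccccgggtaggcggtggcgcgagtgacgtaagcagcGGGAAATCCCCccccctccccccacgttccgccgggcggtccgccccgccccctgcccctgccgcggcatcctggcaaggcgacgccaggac
In Nfkbia the match GGAAATTCCC lies 29 to 20 bases before the start. Tnfaip3 has GGAAATCCCC 12 to 3 bases before its start and a further match at 125 bases before it. The single match of Nfkbie, GGGGGATTCC, starts 106 bases before its start, and Rel has a pair of overlapping matches, GGGAAATCCC and GGAAATCCCC, beginning 92 and 91 bases before its own. A match in the window thus occurred beside a higher level, a lower level and a level that did not pass the test.

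Of the 10 genes, Nfkbia, Tnfaip3, Relb and Bcl3 rose in IRF2_KO cells, Nfkbie fell, and the other 5 did not pass the test (edgeR quasi-likelihood test, p-values adjusted by Benjamini-Hochberg over all genes tested, threshold 0.05). The count of 5 of 10 is close to the background, since 47.2% of all tested genes were called: 23.6% were higher and 23.6% were lower. The median log2 fold change, IRF2_KO over Parental, was 0.12 over the 10 genes and -0.01 over all tested genes. The median of its absolute value was 0.31 over the 10 genes, against 0.18 over all tested genes. The 5 called genes were also those whose libraries did not overlap between the groups, which 54.0% of all tested genes share.

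**Figure D1:**
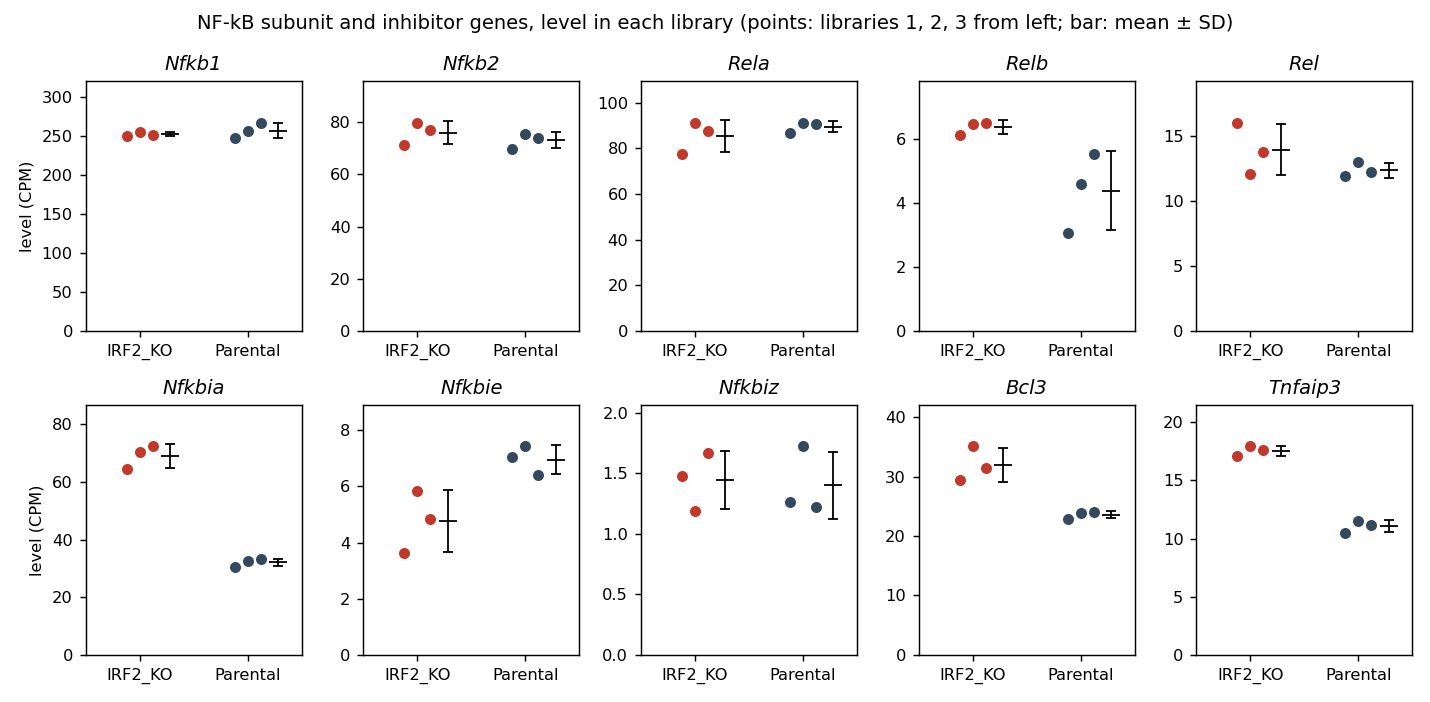
Level in CPM (vertical axis, from 0, one scale per gene) of each of the 10 genes in every IRF2_KO library (left, red) and Parental library (right, dark blue), with the mean ± SD beside the points. The IRF2_KO points lie above all Parental points for Relb, Nfkbia, Bcl3 and Tnfaip3 and below them for Nfkbie, and the groups overlap for the other 5 genes.

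Among the subunits, the genes of the most common pair differed little. Nfkb1 (Entrez gene 18033, chr3:135584655-135691969), which encodes a precursor trimmed to a DNA-binding subunit without an activation domain, had 249.8, 254.8 and 250.7 CPM in IRF2_KO libraries, against 246.7, 256.2 and 266.5 CPM in Parental libraries. Its groups overlapped, and it was not called (log2 fold change -0.03, SE 0.04, edgeR adjusted p = 0.629). The 95% confidence interval of its ratio was 0.923 to 1.04. Rela (Entrez gene 19697, chr19:5637442-5648134), the subunit that carries the activation domain of the usual pair with the Nfkb1 product, had 77.6, 91.1 and 87.6 CPM in IRF2_KO libraries and 86.6, 91.2 and 90.7 CPM in Parental libraries. The first IRF2_KO library was the lowest of the 6, the others overlapped, and the ratio had an interval of 0.881 to 1.03 (log2 fold change -0.07, edgeR adjusted p = 0.340).

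The other subunit genes serve the alternative pathway or induced responses. Nfkb2 (Entrez gene 18034, chr19:46300994-46312400), the precursor processed in the alternative pathway, had 71.0, 79.7 and 77.1 CPM in IRF2_KO libraries and 69.6, 75.3 and 74.0 CPM in Parental libraries. The groups overlapped, and Nfkb2 was not called (log2 fold change 0.06, SE 0.05, edgeR adjusted p = 0.394), its ratio having an interval of 0.964 to 1.12. Relb (Entrez gene 19698, chr7:19606217-19629438), the partner of the Nfkb2 product, had 6.11, 6.48 and 6.51 CPM in IRF2_KO libraries, against 3.05, 4.60 and 5.52 CPM in Parental libraries. Every IRF2_KO library was above every Parental library, and Relb rose 1.45-fold (log2 fold change 0.54, SE 0.15, edgeR adjusted p = 0.00799). The Parental libraries spread widely: their coefficient of variation was 28.4%, where counting error alone gives 7.76%. Without Parental replicate 1, the lowest, the log2 fold change was 0.32 (edgeR adjusted p = 0.0358), and over 15 alternatives its adjusted p lay between 4.66e-05 and 0.0358. Beyond these, the call was lost when a change of more than 1.2-fold was asked for (glmTreat adjusted p = 0.0755).

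Rel (Entrez gene 19696, chr11:23736847-23770969), the subunit c-Rel of blood cells, had 16.1, 12.1 and 13.8 CPM in IRF2_KO libraries and 11.9, 13.0 and 12.2 CPM in Parental libraries. The second IRF2_KO library lay inside the Parental range, and the ratio of 1.13, with an interval of 0.989 to 1.29, was not called (edgeR adjusted p = 0.123). Without IRF2_KO replicate 2 the log2 fold change was 0.27 and passed (edgeR adjusted p = 0.0145), against adjusted p-values up to 0.508 over the alternatives.

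Levels per gene length, the RPKM deposited by the authors, give the order of the subunit transcripts. Nfkb1 was highest with 59.4 ± 0.925 RPKM in IRF2_KO libraries and 60.1 ± 2.21 RPKM in Parental libraries (SD, n = 3 each). Rela followed with 28.6 ± 2.47 and Nfkb2 with 15.6 ± 0.993 RPKM in IRF2_KO libraries, against 29.8 ± 0.777 RPKM for Rela and 14.9 ± 0.579 RPKM for Nfkb2 in Parental libraries. Rel had 5.29 ± 0.724 RPKM in IRF2_KO and 4.66 ± 0.206 RPKM in Parental, and Relb was lowest with 2.39 ± 0.0930 RPKM in IRF2_KO and 1.64 ± 0.462 RPKM in Parental. Within each group, no neighbours in this order overlapped between their libraries. The summed RPKM of the 5 subunits was 111 ± 3.66 in IRF2_KO and 111 ± 3.90 in Parental. Nfkb1 made up 53.4% ± 1.07 of that sum in IRF2_KO and 54.1% ± 0.607 in Parental, whereas Relb made up 2.15% ± 0.0294 in IRF2_KO and 1.47% ± 0.369 in Parental.

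Nfkbia (Entrez gene 18035, chr12:55489409-55492647) encodes IkB alpha, the inhibitor that is degraded and made anew fastest after a signal. It had 64.5, 70.4 and 72.3 CPM in IRF2_KO libraries, against 30.6, 32.5 and 33.1 CPM in Parental libraries. The groups stood far apart, with the lowest IRF2_KO library above the highest Parental one by more than the whole spread of either group. Nfkbia rose 2.15-fold, with a 95% confidence interval of 1.98 to 2.34 (log2 fold change 1.11, SE 0.06, edgeR adjusted p = 2.22e-11). Of all tested genes, 4.79% were called higher by 2-fold or more, and 6.22% had a larger absolute log2 fold change in either direction. Leaving out each library in turn gave log2 fold changes of 1.07 to 1.16.

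Nfkbie (Entrez gene 18037, chr17:45555700-45563169) encodes IkB epsilon, a slower inhibitor that binds pairs of Rela and Rel. It went the other way, with 3.63, 5.82 and 4.85 CPM in IRF2_KO libraries and 7.04, 7.42 and 6.39 CPM in Parental libraries. Every IRF2_KO library was below every Parental library, although the highest IRF2_KO value came near the lowest Parental value. The log2 fold change was -0.54 (SE 0.13, edgeR adjusted p = 0.00263), and the ratio was 0.686 (95% confidence interval 0.565 to 0.833). With 108 to 167 reads in IRF2_KO libraries, counting error gives a coefficient of variation of 8.28%, and that observed was 23.1%. Without IRF2_KO replicate 1, the lowest, Nfkbie fell by 0.38 on the log2 scale (edgeR adjusted p = 0.00933), and without replicate 2 it fell by 0.70 (edgeR adjusted p = 8.17e-05).

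Together with Nfkbib, which encodes IkB beta and is not among the 10, these genes give the 3 cytoplasmic IkB genes summed here. The precursor genes Nfkb1 and Nfkb2 were counted as subunits only. Nfkbib had 41.6, 52.3 and 47.0 CPM in IRF2_KO libraries and 47.8, 50.8 and 55.5 CPM in Parental libraries, and was not called (log2 fold change -0.13, edgeR adjusted p = 0.150). It was called lower without IRF2_KO replicate 2 (-0.21, edgeR adjusted p = 0.00963) and without a filter on low counts (-0.14, edgeR adjusted p = 0.0394). Nfkbia made up 64.6% ± 2.01 of the summed RPKM of the 3 genes in IRF2_KO libraries and 43.0% ± 0.667 in Parental libraries. The share of Nfkbib was 32.6% ± 1.60 in IRF2_KO and 51.1% ± 1.33 in Parental, and that of Nfkbie 2.82% ± 0.460 in IRF2_KO and 5.96% ± 0.659 in Parental. Nfkbia was thus the most abundant of these transcripts per length in each IRF2_KO library, and Nfkbib in each Parental library. Set against the subunits, the summed RPKM of the 3 inhibitors was 56.1%, 61.4% and 61.0% of the summed RPKM of the 5 subunits in IRF2_KO libraries, against 40.8%, 41.1% and 42.2% in Parental libraries. These are transcript levels, and hold no measure of protein.

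**Figure D2:**
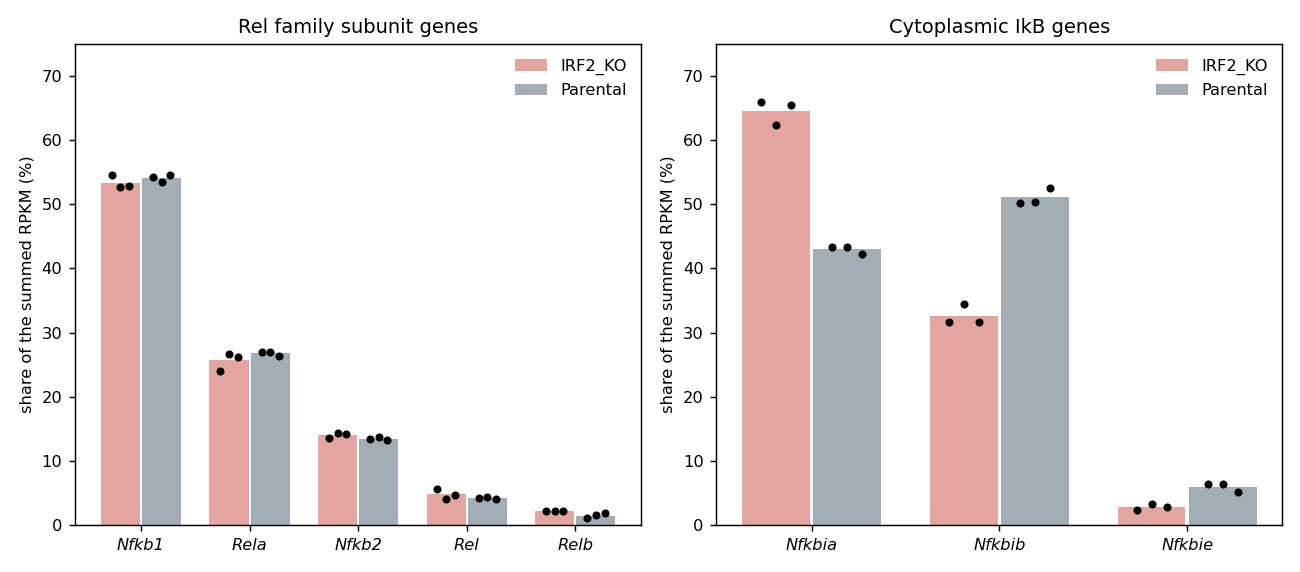
Share of the summed RPKM (vertical axis, percent) taken by each of the 5 subunit genes (left panel) and each of the 3 cytoplasmic IkB genes (right panel); bars are means of 3 libraries, IRF2_KO left of Parental, and points are libraries. The subunit shares lie close together in both groups, with Nfkb1 at 53.4% in IRF2_KO and 54.1% in Parental, while Nfkbia takes 64.6% of the inhibitor sum in IRF2_KO and 43.0% in Parental.

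The nuclear members of the IkB class act on NF-kB bound to DNA instead of holding it in the cytoplasm. Bcl3 (Entrez gene 12051, chr7:19808462-19822824), a partner of the Nfkb1 and Nfkb2 products on DNA, had 29.5, 35.1 and 31.5 CPM in IRF2_KO libraries, against 22.9, 23.8 and 24.0 CPM in Parental libraries. The groups did not overlap, and Bcl3 rose 1.36-fold, with an interval of 1.23 to 1.49 (log2 fold change 0.44, SE 0.07, edgeR adjusted p = 2.96e-05). Nfkbiz (Entrez gene 80859, chr16:55811375-55838954), which encodes IkB zeta, a coactivator of secondary response genes, was the lowest of the 10 with 44, 34 and 56 reads in IRF2_KO libraries and 50, 58 and 49 reads in Parental libraries. It averaged 1.44 ± 0.242 CPM in IRF2_KO and 1.40 ± 0.279 CPM in Parental (SD, n = 3 each). The interval of its ratio, 0.775 to 1.41, is wide and includes the ratio of 1.36 seen for Bcl3. A rise of that size is thus not excluded for Nfkbiz (log2 fold change 0.07, edgeR adjusted p = 0.820).

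Tnfaip3 (Entrez gene 21929, chr10:19000910-19015410) encodes a ubiquitin-editing enzyme that shuts off signalling above the IkB kinase. It had 17.1, 17.9 and 17.7 CPM in IRF2_KO libraries, against 10.5, 11.5 and 11.2 CPM in Parental libraries. The libraries of each group lay close together, at the level of counting error, and the groups were well apart. Tnfaip3 rose 1.59-fold, with an interval of 1.43 to 1.76 (log2 fold change 0.67, SE 0.07, edgeR adjusted p = 6.16e-07), and 11.6% of tested genes had a larger absolute log2 fold change.

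**Figure D3:**
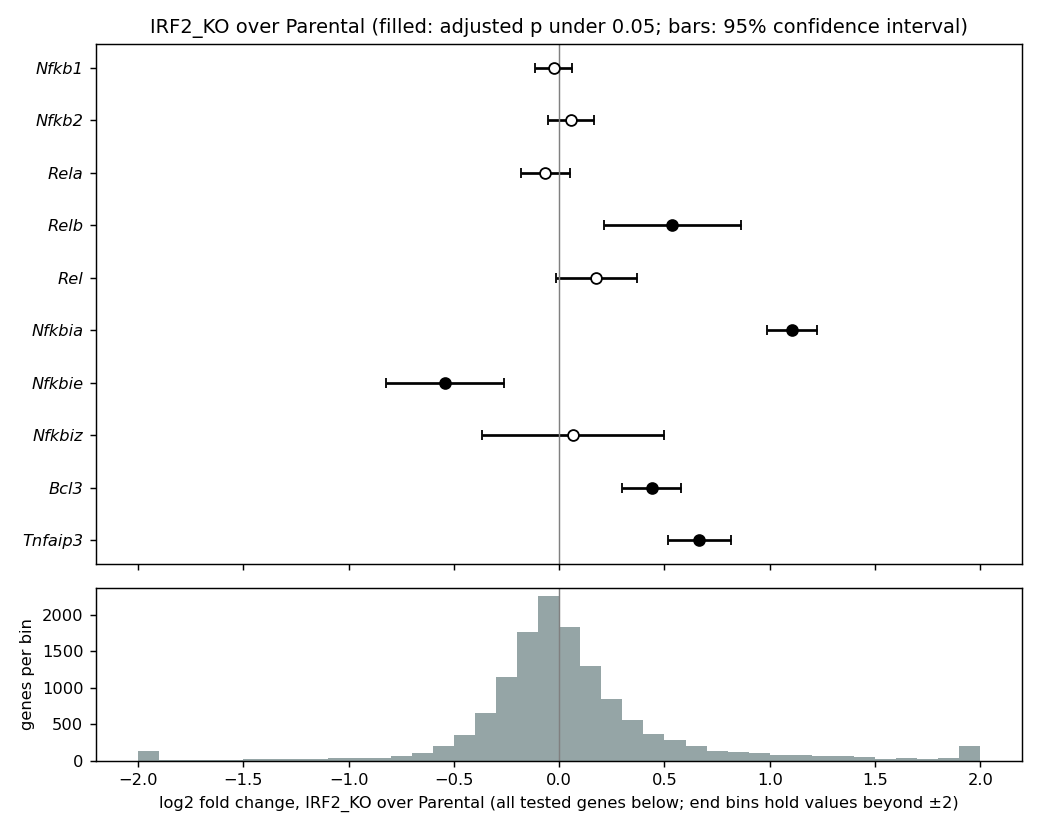
Log2 fold change of each of the 10 genes, IRF2_KO over Parental (horizontal axis), with its 95% confidence interval and filled symbols where the adjusted p was under 0.05, above a histogram of the same quantity for all 13353 tested genes. Nfkbia, at 1.11, lies in the upper tail of the histogram, Nfkb1, Nfkb2 and Rela lie near its centre, and Nfkbie, at -0.54, lies on its lower side.

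Libraries of a group did not deviate evenly. IRF2_KO replicate 1 was the lowest of its group for 8 of the 10 genes, with Rel and Nfkbiz the exceptions, and Parental replicate 1 was the lowest of its group for 8 as well. Over all tested genes these libraries were the lowest of their groups for 38.6% and 41.4%. The direction of each called gene was the same without either of them. Reads of overlapping genes could enter the counts of Nfkb2, which overlaps Psd by 299 bases and AC114539.1 by 1292 bases, both on the other strand, and of Bcl3, which overlaps the antisense genes Gm16174 and Gm16175. Nfkb1 overlaps Gm43430 on the same strand by 3897 bases. No counts were matched to AC114539.1, Gm16175 or Gm43430. Psd had 85 to 133 reads in IRF2_KO and 85 to 139 in Parental libraries, against 2113 to 2593 in IRF2_KO and 2538 to 2975 in Parental libraries for Nfkb2, and Gm16174 had at most 13 in any library.

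The genes whose level over the 6 libraries ran most like that of Nfkbia, by the root-mean-square distance between log2 CPM profiles each centred on its own mean, were Gm31850 (distance 0.0358), Mxd1 (0.0403) and Selenbp1 (0.0418), among 11129 genes that averaged 2 CPM or more. Mxd1, which encodes a partner of MAX that opposes MYC, averaged 88.2 ± 2.51 CPM in IRF2_KO and 39.5 ± 1.26 CPM in Parental. For Nfkbie the nearest were Ggact (0.105), Chil1 (0.106) and Akr1b3 (0.114), at distances larger than those around Nfkbia. These likenesses rest on 6 libraries of 2 groups and carry no test.

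The rest of the pathway was read from 6 lists ordered by role, with 100 genes in all, of which 81 could be tested. In them 30 genes rose and 12 fell. Together these are 51.9% of those tested, again near the background of 47.2% for both directions. By direction, rises outnumbered falls in the lists, while the background was even, with 23.6% higher and 23.6% lower. Without IRF2_KO replicate 3 the number that fell was 6. Against a minimum change of 1.2-fold (glmTreat), 17 genes were called higher and 2 lower. Over all 13353 tested genes that test called 1471 higher and 869 lower. Of the ligands, 7 of 10 could be tested and Ltb, which encodes lymphotoxin beta, was the only one called. It averaged 1.78 ± 0.215 CPM in IRF2_KO and 0.928 ± 0.194 CPM in Parental (edgeR adjusted p = 0.00114). Tnf, the founding cytokine of the pathway, had 2.99, 2.65 and 2.56 CPM in IRF2_KO libraries and 2.90, 3.12 and 3.23 CPM in Parental libraries, and was not called (log2 fold change -0.18, edgeR adjusted p = 0.306), nor were Tnfsf12 (-0.29) or Tnfsf13b (0.44). Il1b and Lta had fewer than 10 reads in every library.

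Among receptors, 5 of 10 tested rose and 2 fell, where 23.6% of all tested genes were called higher and 23.6% lower. Both receptors of tumour necrosis factor were called, in opposite directions: Tnfrsf1a had 215, 238 and 223 CPM in IRF2_KO libraries and 179, 186 and 190 CPM in Parental libraries, while Tnfrsf1b had 56.2, 55.4 and 55.8 CPM in IRF2_KO libraries and 90.0, 97.3 and 98.2 CPM in Parental libraries. For neither gene did the groups overlap, and the log2 fold changes were 0.29 and -0.77 (edgeR adjusted p = 5.34e-05 and 4.48e-10). Nod1, a cytosolic sensor of bacterial peptidoglycan, rose (log2 fold change 0.59), as did Tlr2, a receptor of bacterial lipopeptides (0.75), and Tlr7, a receptor of single-stranded RNA (1.66, with 3.70 CPM in IRF2_KO and 1.18 CPM in Parental).

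Between receptors and kinases, 6 of 22 tested adaptors and ubiquitin ligases rose and 4 fell, against a background of 23.6% each way. Ripk2, the kinase that couples Nod receptors to NF-kB, averaged 57.0 ± 1.29 CPM in IRF2_KO and 37.2 ± 1.57 CPM in Parental, and Irak2, a kinase of the Toll-like receptor complex, 29.4 ± 1.07 CPM in IRF2_KO and 18.2 ± 1.84 CPM in Parental. Rnf31 and Rbck1, which encode parts of the ligase that makes linear ubiquitin chains, rose by 0.49 and 0.36 on the log2 scale, whereas Sharpin, the remaining part, was not called (-0.04, edgeR adjusted p = 0.509). The 4 that fell were Card9, Traf2, Ripk1 and Irak1. Their log2 fold changes were -0.24, -0.21, -0.19 and -0.10 (edgeR adjusted p = 0.000971, 0.00771, 0.00276 and 0.0453). The call of Irak1 was lost with RLE scaling (edgeR adjusted p = 0.0645).

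Of the 11 kinase and kinase partner genes, 3 rose and 2 fell, against the same background of 23.6% each way. Map3k8, which encodes the kinase Tpl2 that the Nfkb1 precursor holds inactive, had the largest change of the 6 lists, with 3.96, 3.77 and 3.89 CPM in IRF2_KO libraries and 1.21, 0.801 and 0.870 CPM in Parental libraries (3.99-fold higher, SE 0.17 on the log2 scale, edgeR adjusted p = 3.07e-08). The catalytic subunits of the IkB kinase, Chuk and Ikbkb, were not called (log2 fold changes of 0.05 and -0.05), while their scaffold Ikbkg averaged 88.4 ± 1.36 CPM in IRF2_KO and 74.4 ± 0.253 CPM in Parental. Ikbke, an IkB kinase relative of the interferon response, rose by 0.27 on the log2 scale, and Tab2, an adaptor of the kinase Map3k7, fell by 0.16. The call of Tab2 was lost without IRF2_KO replicate 3 (-0.14, edgeR adjusted p = 0.0599). Map3k14, the other gene that fell, averaged 4.86 ± 0.338 CPM in IRF2_KO and 6.28 ± 0.611 CPM in Parental (log2 fold change -0.37, edgeR adjusted p = 0.00966). Its call was lost without IRF2_KO replicate 3 or Parental replicate 3 (edgeR adjusted p = 0.0556 and 0.0568).

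Other inhibitors went both ways, 4 of 14 tested higher and 2 lower, beside a background of 23.6% higher and 23.6% lower. None of these 6 calls held against a minimum change of 1.2-fold (glmTreat). The deubiquitinases Otud7b and Cyld rose by 0.33 and 0.31 on the log2 scale. Otulin, which cuts linear chains, averaged 38.4 ± 2.04 CPM in IRF2_KO and 47.9 ± 0.825 CPM in Parental, and Pdlim2, a ligase for Rela, 13.5 ± 0.232 CPM in IRF2_KO and 17.6 ± 0.158 CPM in Parental.

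Textbook NF-kB target genes rose in 11 of 17 tested and fell in 2, against 23.6% higher and 23.6% lower over all tested genes. Against a minimum change of 1.2-fold 8 were higher and 1 was lower (glmTreat). In that test 1471 of all 13353 tested genes were higher and 869 lower. The median log2 fold change of the tested targets was 0.44, and that of all genes -0.01. Too low to test were 9 of the 26 listed: Vcam1, Cxcl1, Cxcl2, Ccl2, Ccl5, Il6, Il12b, Cd83 and Csf2. None of these exceeded 10 reads in any library of either group. Ccl4, a chemokine, averaged 33.2 ± 0.823 CPM in IRF2_KO and 22.5 ± 0.379 CPM in Parental, Lcn2, a siderophore-binding protein of neutrophil granules, 62.4 ± 4.23 CPM in IRF2_KO and 43.0 ± 2.02 CPM in Parental, and Icam1, an adhesion molecule, 10.8 ± 0.669 CPM in IRF2_KO and 6.59 ± 0.311 CPM in Parental. Ier3 rose by 0.65 on the log2 scale and Bcl2a1b by 1.49, though Bcl2a1b has near-identical copies and only reads that align uniquely were counted. Mmp9, also counted as higher, had 38 to 55 reads in IRF2_KO and 33 to 36 in Parental libraries (log2 fold change 0.65, edgeR adjusted p = 0.0293). Its call was lost without IRF2_KO replicate 2 or Parental replicate 1 or 3 (edgeR adjusted p of 0.0716 to 0.198). DESeq2 (adjusted p = 0.0601) and limma on log2(RPKM + 1) (adjusted p = 0.0570) did not call it either. Gadd45b fell, with 8.46 ± 0.221 CPM in IRF2_KO and 13.0 ± 0.652 CPM in Parental. Ccl3, a chemokine and the other target called lower, averaged 126.6 ± 7.30 CPM in IRF2_KO and 139.8 ± 2.78 CPM in Parental (log2 fold change -0.14, edgeR adjusted p = 0.0199), and lost its call without IRF2_KO replicate 1 or 3 or Parental replicate 2 or 3 (edgeR adjusted p of 0.0600 to 0.109). Sod2, an antioxidant enzyme gene, was not called (log2 fold change -0.03, edgeR adjusted p = 0.550). Of the markers given above, the called macrophage genes rose, while the called neutrophil genes went both ways. Those lists include none of these targets, though targets such as Lcn2 are also neutrophil granule genes. The part of the markers in these counts was not tested. Several of these targets are also known to answer to signals other than NF-kB.

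**Figure D4:**
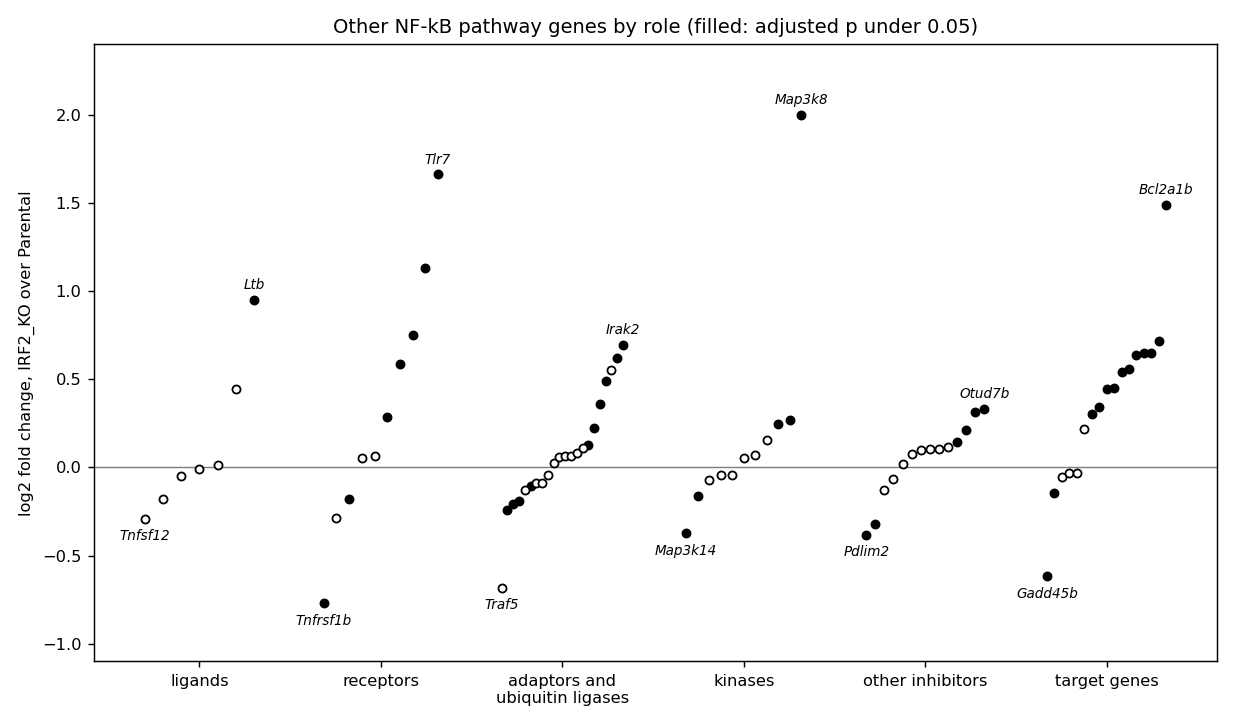
Log2 fold change, IRF2_KO over Parental (vertical axis), of each tested gene of the 6 pathway lists (horizontal axis, by role; genes of a list run from lowest to highest), filled where the adjusted p was under 0.05, with the lowest and highest gene of each list named. Map3k8, 3.99-fold higher, is the highest point of all, and 11 of the 17 target genes are filled and above 0.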

How the data were processed

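RNA sequencing libraries of 6 samples, 3 IRF2_KO and 3 Parental, were grouped by their group label. Replicate numbers follow record order only. The submitters' processing notes name GSNAP and GRCm38; the version, the annotation and the use of strand were not given in the sources used here. The protocol names a total RNA kit and the molecule label polyadenylated RNA. The counts deposited by the authors are uniquely aligned reads per gene model, per the file headers. A deposited RPKM, adjusted by the authors' size factors per the file headers, was used for levels per length and as an alternative. Among 9406 genes with at least 200 reads in every library, this RPKM differed from the counts by 1 factor per library for each gene. Relb, Nfkbie and Nfkbiz had fewer reads in some libraries, so that check did not cover them. Symbols came from RefSeq GRCm38.p6 for 31049 of 36528 IDs. A count of 3 corresponds to 0.0751 to 0.103 CPM. Libraries of a group differed beyond sampling noise (mean chi-square per gene 2.78 to 10.1).

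Counts were fitted in R 4.3.3 with edgeR 4.0.16: filterByExpr, TMM, robust quasi-likelihood F-test, two-sided, Benjamini-Hochberg over 13353 genes. Each SE was taken from the log2 fold change and its F statistic. Alternatives used limma 3.58.1 and DESeq2 1.42.0. The genes and lists were chosen with earlier results of these data known. Named from each list were the 4 genes with the smallest adjusted p and the one with the largest change. Nfkbib, Gsdmd, Tnfrsf1a, Sharpin, Card9, Traf2, Ripk1, Irak1, Chuk, Ikbkb, Map3k14, Mmp9, Gadd45b, Ccl3, Sod2, Il1b and Lta were named after their values were seen. So were single marker genes and the targets too low to test. List totals rest on all tested members.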

Additional observations from a re-analysis of the deposited data

How the results depend on the processing

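The counts of 4 higher and 1 lower among the 10 genes were the same with RLE, upper-quartile and library-size scaling, other filters on low counts, DESeq2, limma-voom, limma on log2(RPKM + 0.1) and log2(RPKM + 1), and an adjusted p under 0.01. Against a minimum of 1.2-fold (glmTreat) 3 were higher, without Relb, and 1 lower, while over all genes 1471 were higher and 869 lower, against 3146 and 3150 with no minimum, since that test asks for more than any change. The pathway lists then held 17 higher and 2 lower, against 30 and 12 (chosen after seeing the data). Leaving out each library in turn gave 4 to 5 higher and 1 lower; the fifth was Rel, without IRF2_KO replicate 2. Nfkbia, Tnfaip3, Bcl3, Relb and Nfkbie kept their call in each of 15 refits at the 0.05 threshold (all of these but glmTreat). The pathway genes lower were 12, and 6 to 14 with a library left out; the lowest came without IRF2_KO replicate 3, where Il1rap, Irak1, Traf2, Map3k14, Tab2 and Ccl3 lost their call, and the cause was not tested. With shares of counts in place of RPKM, the difference in share, IRF2_KO minus Parental, was 0.392 percentage points for Rel, against 0.575, and 0.468 for Relb, against 0.683; the other 3 subunits moved by less than the smaller SD of the groups. Windows of 250 bases gave a kappaB match in 5 of 7 genes, without Bcl3, whose match lies after the start. No paired analysis was possible because the labels carry no replicate numbers. Depth limits Nfkbiz most, with 34 to 58 reads a library.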
